A study of Mus musculus with 6 samples.

Results

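Transcript levels of 10 genes that make, recycle and use glutathione were followed across 6 RNA libraries of RAW264.7 cells. The genes were chosen by name, as the rows of the deposited gene table whose symbol equals Slc7a11, Gclc, Gclm, Gss, Gsr, Gpx1, Gpx4, Gsto1, Gstm1 or Gstp1. They are 10 of the 39089 genes in that table, and all 10 passed the filter on low counts that left 12571 genes to test. RAW264.7 is a mouse macrophage-like line, derived from a virus-induced tumour and labelled WT. One group had pulsed ultrasound of low intensity (LIPUS) on top of lipopolysaccharide (LPS, a bacterial cell wall component that activates macrophages). The ultrasound was given at 45 mW/cm2 in 2 sessions of 25 min, 24 h apart (3 libraries, called LIPUS libraries 1 to 3). The other group had LPS and no ultrasound (3 libraries, called LPS libraries 1 to 3). LPS was at 100 ng/mL for 48 h in both. Whether cells without ultrasound had a sham exposure is not given in the sources used here. Cells free of LPS are not part of the comparison, and its own effect was therefore not measured.

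Glutathione is a small peptide of glutamate, cysteine and glycine, and the most abundant thiol of most cells. Cystine enters through an exchanger, is reduced to cysteine and joined to glutamate in the rate-limiting step of synthesis, and glycine is added in the next step. Glutathione peroxidases spend it to remove hydrogen peroxide and lipid peroxides, transferases attach it to reactive compounds, and a reductase returns the oxidised form with electrons from NADPH. In macrophages, which release oxidants when LPS activates them, this system limits damage to the cell itself, and many of its genes are targets of the transcription factor NRF2.

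Every one of the 10 messages was present in every library, at 456 (Gstm1) to 2356 (Gpx4) reads. Levels between genes were compared in TPM, which divides reads by gene length and by depth, and coordinates are on mm10. Gpx4 was the highest, at 194.5 to 209.1 TPM over the 6 libraries. It encodes the selenoenzyme that reduces lipid peroxides within membranes and guards against ferroptosis (chromosome 10, 80047166 to 80056439, plus strand). Gpx1, the abundant selenoenzyme that removes hydrogen peroxide, followed at 160.5 to 178.7 TPM (chromosome 9, 108339080 to 108340342, plus strand).

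Of the transferases, Gstp1 was the highest at 97.5 to 111.0 TPM (chromosome 19, 4035411 to 4037912, minus strand). It encodes the pi-class enzyme, which joins glutathione to electrophilic compounds. Gsto1, whose omega-class enzyme reduces mixed disulfides and dehydroascorbate, had 66.2 to 81.2 TPM (chromosome 19, 47854973 to 47864790, plus strand). Gstm1, of the mu class, had 46.3 to 52.5 TPM (chromosome 3, 108012250 to 108017973, minus strand).

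Among the synthesis genes the small subunit was the more abundant message. Gclm, which encodes the modifier subunit of glutamate-cysteine ligase, had 77.7 to 95.9 TPM (chromosome 3, 122245487 to 122267215, plus strand). Gclc, which encodes the catalytic subunit of the same enzyme, had 34.6 to 39.7 TPM (chromosome 9, 77754535 to 77794489, plus strand). Gss, the glutathione synthetase that adds glycine, had 63.3 to 69.4 TPM (chromosome 2, 155563181 to 155592810, minus strand). Gsr, the glutathione reductase, had 25.8 to 33.9 TPM (chromosome 8, 33653238 to 33698162, plus strand). Slc7a11, the light chain of the cystine and glutamate exchanger, was the lowest at 16.2 to 21.3 TPM (chromosome 3, 50364936 to 50499087, minus strand). Down the order from Gpx4 to Slc7a11, neighbours overlapped in range over the 6 libraries in 2 places, between Gclm and Gsto1 and between Gsto1 and Gss. Order and overlaps depend on the deposited gene lengths, which for some genes exceed every listed transcript. Gpx4 has 1465 bases against transcripts of 788 to 1021, and Gclm 2235 against a longest of 2072.

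**Figure D1:**
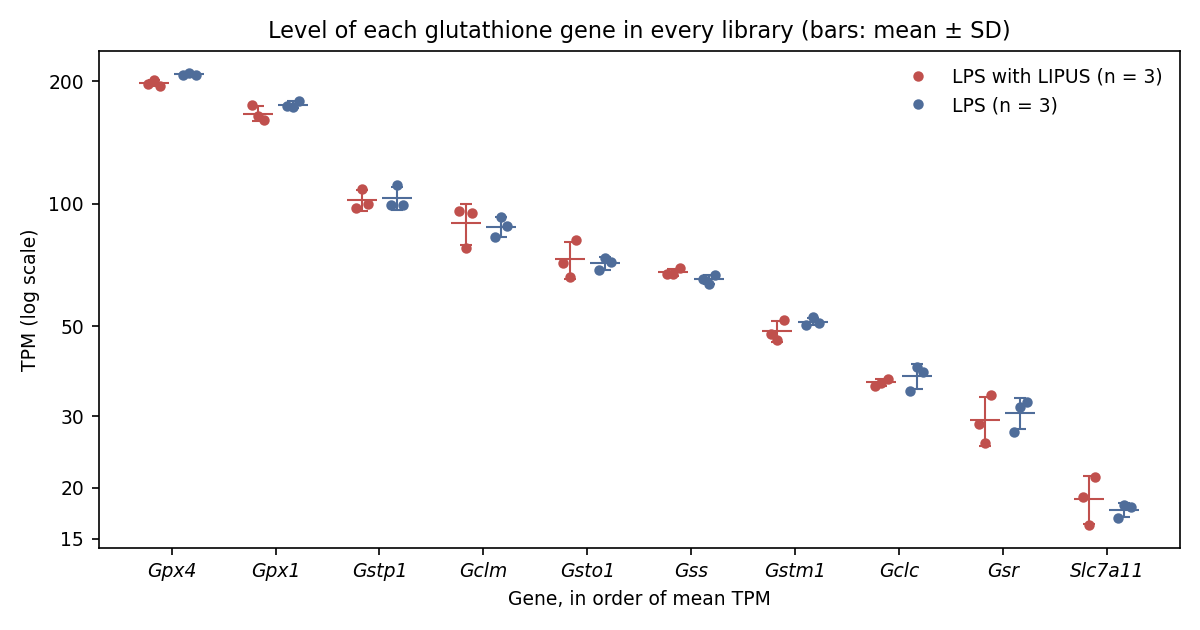
TPM on a log axis for the 10 genes in order of their mean over 6 libraries, with a dot per library and the mean ± SD of each group (LPS with LIPUS left, LPS right, n = 3 each). The order runs from Gpx4 at 194.5 to 209.1 TPM to Slc7a11 at 16.2 to 21.3 TPM. For each gene the dots of both groups lie at nearly the same height on this axis, though for Gpx4 and Gss the groups do not overlap.

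Upstream sequences are shown for 3 of these genes, picked because they hold a match to a stress-responsive motif. RefSeq windows of 250 bases before the annotated start (build GRCm38.p6) were at hand for 8 of the 10 genes, 12 windows in all, since Gpx4 and Gstm1 have several starts. RefSeq starts can lie inside the deposited span of a gene, as they do for Slc7a11 and Gclm. Each window was searched on both strands for TGATGNAA (the element bound by ATF4, the amino acid stress factor), TGACNNNGC (the core of the NRF2 element) and TGANTCA (AP-1). The ATF4 element stood in 1 of the 8 genes, Slc7a11, and in 3.45% of the 32851 windows of all genes. The NRF2 core in that spelling stood in 1 of the 8, Gclm, against 10.2% of all windows. The AP-1 element stood in 1 of the 8, Gstp1, against 6.75%. Counts of 1 gene cannot set these genes apart from the shares over all windows. A gene was counted if any of its windows held the element, while the shares are per window. In Slc7a11 the ATF4 element occurs at -66 to -59 on the gene's strand and again at -47 to -40 on the opposite strand, counted from the start. In Gclm the NRF2 core lies at -134 to -126 on the opposite strand, and in Gstp1 the AP-1 element lies at -74 to -68. Read on, the Gstp1 match continues as TGAGTCAGC, which has G where the searched NRF2 core has C. Other spellings of that core were not searched. The windows run 5′ to 3′ on the gene's own strand, with these matches in capitals, for Slc7a11 (chr3:50443614-50443863, minus strand), Gclm (chr3:122245307-122245556, plus strand) and Gstp1 (chr19:4037913-4038162, minus strand).
Slc7a11: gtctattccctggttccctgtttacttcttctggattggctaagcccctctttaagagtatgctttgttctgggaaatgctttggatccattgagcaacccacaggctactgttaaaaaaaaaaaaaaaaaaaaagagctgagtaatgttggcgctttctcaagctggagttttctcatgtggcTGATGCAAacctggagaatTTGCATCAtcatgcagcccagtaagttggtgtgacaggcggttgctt
Gclm: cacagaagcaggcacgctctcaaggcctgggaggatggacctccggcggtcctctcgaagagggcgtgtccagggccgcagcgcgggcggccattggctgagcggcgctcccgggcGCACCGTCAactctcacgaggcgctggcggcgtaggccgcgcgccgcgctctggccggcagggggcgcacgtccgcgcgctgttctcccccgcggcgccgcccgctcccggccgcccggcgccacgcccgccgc
Gstp1: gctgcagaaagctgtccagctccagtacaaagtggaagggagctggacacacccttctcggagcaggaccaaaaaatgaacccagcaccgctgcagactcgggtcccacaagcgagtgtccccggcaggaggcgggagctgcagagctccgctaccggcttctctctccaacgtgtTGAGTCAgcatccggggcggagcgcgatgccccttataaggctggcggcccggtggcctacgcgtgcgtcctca
Of 2 general motifs searched likewise, the Sp1 box GGGCGG stood in 4 of the 8 genes (Gclm, Gpx4, Gsto1 and Gstp1) and in 32.7% of all windows. TATAAA stood in 1 gene (Gstm1) and in 12.4% of all windows. Genes with several windows are more likely to be counted, so counts per gene and shares per window are not like for like. A match of letters is a description and not a site of binding. No other of the 12 windows held any of the 3 stress-responsive elements in the spelling searched.

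Setting cells with ultrasound beside cells without it asks whether ultrasound altered these messages in activated cells. None of the 10 was called. The estimated differences ran from -6.59% (Gstm1) to 4.83% (Slc7a11). By edgeR's quasi-likelihood test, with an adjusted p of 0.05 as threshold, 0 of 10 passed, and over all 12571 genes 0% did. DESeq2, limma-voom and limma-trend on TPM also called 0 of the 10, and the smallest unadjusted p among them with edgeR was 0.133 (Gpx4), while 4.61% of all tested genes had one below 0.05. Of the 10 log2 fold changes 6 were negative and 4 positive, with a median of -0.05 and a range of -0.10 to 0.07, while 52.4% of all tested genes were negative with a median of -0.01. The median absolute log2 fold change was 0.07 for the 10 genes and 0.07 for all tested genes. All 10 had a 95% interval inside a 1.3-fold change either way, as did 67% of tested genes. Being bulk RNA, these libraries cannot tell fewer cells carrying a message from less of it per cell. The labels call the libraries repeats without saying that they came from separate cultures, so p-values measure the spread between these samples, which may be technical.

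Differences between groups were measured on CPM (reads scaled to library size, with a TMM factor per library that aligns most genes). Slc7a11 supplies the cystine for synthesis and is known to be induced in macrophages by LPS. It had 86.0, 79.1 and 92.6 CPM in LIPUS libraries 1 to 3, against 79.4, 82.5 and 83.9 CPM in LPS libraries 1 to 3. The LIPUS libraries held both its highest and its lowest value, so the groups overlapped. Its log2 fold change was 0.07 ± 0.06 (SE, 95% bounds -0.06 and 0.20, edgeR adjusted p = 0.999), and LIPUS was higher than every LPS library in 2 of 3 libraries. Without LIPUS library 2 it was at 0.12 (unadjusted p = 0.0493, edgeR adjusted p = 0.684), and without LIPUS library 3 at 0.014 (edgeR adjusted p = 0.982). The other chain of the exchanger is encoded by Slc3a2, named here after its values were seen, which averaged 261.7 ± 5.80 CPM with LIPUS and 261.6 ± 4.35 CPM with LPS (SD, n = 3 each).

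Gclc had 62.7, 68.6 and 62.6 CPM in the LIPUS libraries, against 63.3, 70.0 and 69.8 CPM in the LPS libraries. The groups overlapped, and the log2 fold change was -0.07 ± 0.06 (SE, 95% bounds -0.20 and 0.07, edgeR adjusted p = 0.999). Its partner Gclm had 101.4, 88.7 and 96.3 CPM in the LIPUS libraries, against 91.1, 98.3 and 96.0 CPM in the LPS libraries. LIPUS libraries again gave both the highest and the lowest Gclm value, and the log2 fold change was 0.005 ± 0.06 (SE, 95% bounds -0.12 and 0.13, edgeR adjusted p = 0.999).

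Both subunits make 1 enzyme, so the ratio of their messages was compared within libraries, where scaling cancels. The ratio of Gclm to Gclc TPM was 2.69, 2.15 and 2.55 in the LIPUS libraries, against 2.39, 2.33 and 2.28 in the LPS libraries. It averaged 2.46 ± 0.28 with LIPUS and 2.33 ± 0.05 with LPS (SD, n = 3 each), a log2 difference of 0.07 (exact permutation test, two-sided, p = 0.5, where 3 against 3 cannot go below 0.1). LIPUS library 2 lay below every LPS library and the other two lay above them. Leaving out LIPUS library 2 gave a log2 difference of 0.17, and leaving out LIPUS library 1 gave 0.005. With 2 libraries against 3 an exact permutation test likewise cannot go below 0.1.

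Gss had 64.3, 69.1 and 63.8 CPM in the LIPUS libraries, against 65.2, 60.9 and 65.8 CPM in the LPS libraries, which overlapped. Its log2 fold change was 0.04 ± 0.06 (SE, 95% bounds -0.09 and 0.17, edgeR adjusted p = 0.999). Gsr, which returns oxidised glutathione to use, had 36.3, 35.1 and 41.2 CPM in the LIPUS libraries, against 36.2, 40.2 and 42.4 CPM in the LPS libraries. Its group means differed by less than the SD within either group, at -0.08 ± 0.08 on the log2 scale (SE, 95% bounds -0.25 and 0.10, edgeR adjusted p = 0.999). It was at -0.15 without LIPUS library 3 (edgeR adjusted p = 0.757), -0.14 without LPS library 1 and -0.023 without LPS library 3.

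Gpx1 had 86.4, 87.7 and 76.3 CPM in the LIPUS libraries, against 89.7, 85.7 and 91.0 CPM in the LPS libraries. LIPUS library 3 was the lowest and the other LIPUS libraries lay within the LPS range, giving a log2 fold change of -0.09 ± 0.06 (SE, 95% bounds -0.22 and 0.04, edgeR adjusted p = 0.999). Without LIPUS library 2 Gpx1 was at -0.13 (edgeR adjusted p = 0.715), and without LIPUS library 3 at -0.025 (edgeR adjusted p = 0.964). Gpx4 had 136.8, 150.8 and 129.5 CPM in the LIPUS libraries, against 149.8, 145.8 and 148.3 CPM in the LPS libraries. Here LIPUS library 2 was the highest of all 6 and LIPUS library 3 the lowest, and the log2 fold change was -0.09 ± 0.06 (SE, 95% bounds -0.21 and 0.03, edgeR adjusted p = 0.999). The Gpx4 estimate depended on which LIPUS libraries were kept. Without LIPUS library 2 it was at -0.15 (unadjusted p = 0.00794, adjusted p = 0.438), and without LIPUS library 3 at -0.04 (adjusted p = 0.935). Over all 6 such fits its adjusted p was 0.438 to 1.00.

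Gstm1 was the one of the 10 whose groups did not overlap in CPM. It had 31.0, 32.4 and 32.3 CPM in the LIPUS libraries, against 34.1, 34.3 and 34.1 CPM in the LPS libraries. All 3 LIPUS libraries lay below all 3 LPS libraries, with a log2 fold change of -0.10 ± 0.07 (SE, 95% bounds -0.25 and 0.05, edgeR adjusted p = 0.999). Over all tested genes the groups failed to overlap in 9.72%, 4.63% with LIPUS lower and 5.09% with LIPUS higher, so 1 of 10 is near the background. Its LPS libraries agreed to within a coefficient of variation of 0.306%, less than the 4.50% that counting error alone gives at its depth. In TPM the Gstm1 groups overlapped, and 2 other genes of the 10 did not: Gpx4, at 197.3, 201.7 and 194.5 TPM in the LIPUS libraries against 207.5, 209.1 and 207.6 TPM in the LPS libraries, and Gss, at 67.2, 67.0 and 69.4 TPM in the LIPUS libraries against 65.4, 63.3 and 66.7 TPM in the LPS libraries. Non-overlap in TPM was seen in 7.81% of all tested genes, 2.35% with LIPUS lower and 5.46% with LIPUS higher. By limma-trend on log2(TPM + 1), Gpx4 was at -0.07 (adjusted p = 1.00) and Gss at 0.06 (adjusted p = 1.00).

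Gsto1 had 39.9, 39.8 and 43.5 CPM in the LIPUS libraries, against 39.8, 41.2 and 41.3 CPM in the LPS libraries. The groups overlapped and the log2 fold change was 0.01 ± 0.07 (SE, 95% bounds -0.14 and 0.16, edgeR adjusted p = 0.999). Gstp1 had 34.3, 41.4 and 33.8 CPM in the LIPUS libraries, against 36.4, 39.3 and 35.9 CPM in the LPS libraries. LIPUS library 2 was the highest of all 6 and the other two LIPUS libraries were the lowest, at a log2 fold change of -0.03 ± 0.08 (SE, 95% bounds -0.21 and 0.15, edgeR adjusted p = 0.999). Without LIPUS library 2 it was at -0.13 (adjusted p = 0.798), and without LIPUS library 3 at 0.03 (adjusted p = 0.975).

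**Figure D2:**
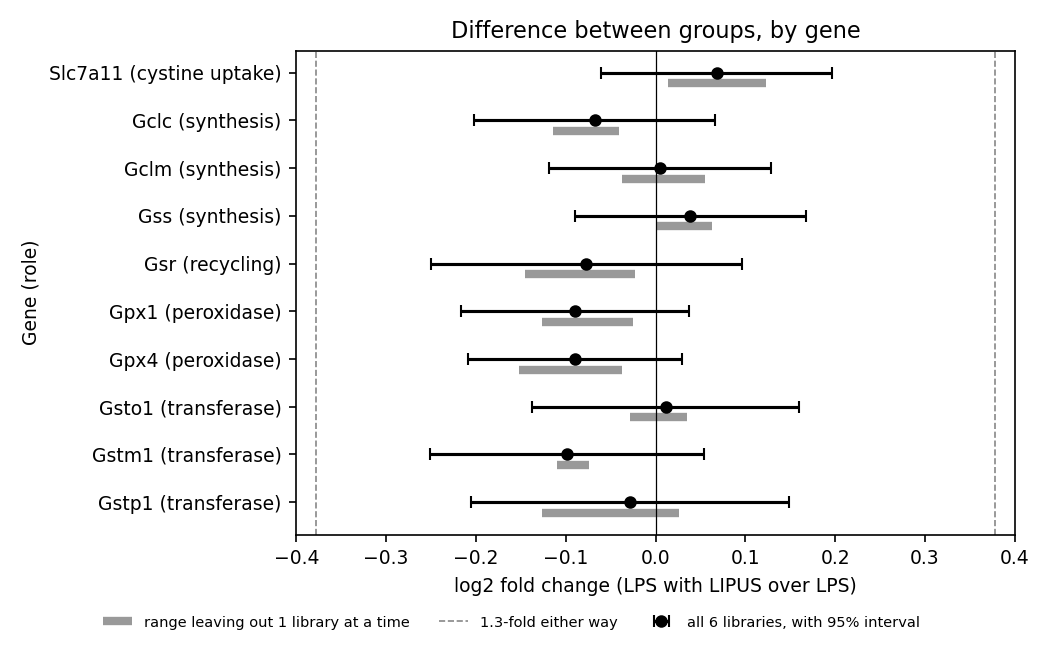
Each gene's log2 fold change, LIPUS over LPS alone, with its 95% interval from edgeR (black, n = 3 against 3), the range over fits that leave out 1 library (grey), and dashed lines at 1.3-fold. Every interval includes 0 and stays inside the dashed lines, from Gsr and Gstm1 at their lowest bound of -0.25 to Slc7a11 at its highest of 0.20.

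The 10 genes varied more among the LIPUS libraries than among the LPS libraries. Their coefficient of variation had a median of 7.11% with LIPUS and 3.51% with LPS, and it was the larger with LIPUS in 9 of 10, Gclc being the exception. The same held for 59.0% of all tested genes, with medians of 7.81% with LIPUS and 6.40% with LPS. It also held for 62.5% of the 4052 tested genes within the CPM range of the 10. Medians of those 4052 were 5.31% with LIPUS and 4.17% with LPS. Counting error alone gives 2.16% (Gpx4) to 4.50% (Gstm1) at these depths.

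LIPUS libraries 2 and 3 deviated from the mean of all 6 in opposite directions for 9 of the 10 genes, as they did for 66.3% of all tested genes. The shortest message, Gstp1 (744 bases), lay at 0.17 in LIPUS library 2 and -0.12 in LIPUS library 3 (log2 of CPM + 0.5, minus its mean). Gpx1 (1045 bases) lay at 0.03 and -0.17, and Gpx4 (1465 bases) at 0.07 and -0.15 in the same libraries. The longest, Slc7a11 (9568 bases), lay at -0.08 in LIPUS library 2 and 0.14 in LIPUS library 3. Over the 1796 tested genes under 1500 bases the median deviation was 0.08 in LIPUS library 2 and -0.09 in LIPUS library 3, and over the 5396 genes above 4000 bases it was -0.03 and 0.04. The 5379 genes between lay at 0.01 in LIPUS library 2 and -0.01 in LIPUS library 3. Several of the 10 genes did not have the signs of their band. Gsr (2672 bases) lay at -0.13 in LIPUS library 2 and 0.10 in LIPUS library 3, Gclm (2235 bases) at -0.10 and 0.02, and the short Gsto1 (1179 bases) at -0.04 and 0.09, while Gstm1 (1372 bases) lay at -0.03 in both. In an added fit with each library's trend on gene length removed, the 10 log2 fold changes ran from -0.08 for Gstm1 to 0.05 for Gss and 0 of 10 passed (smallest adjusted p = 0.971, Gpx4).

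**Figure D3:**
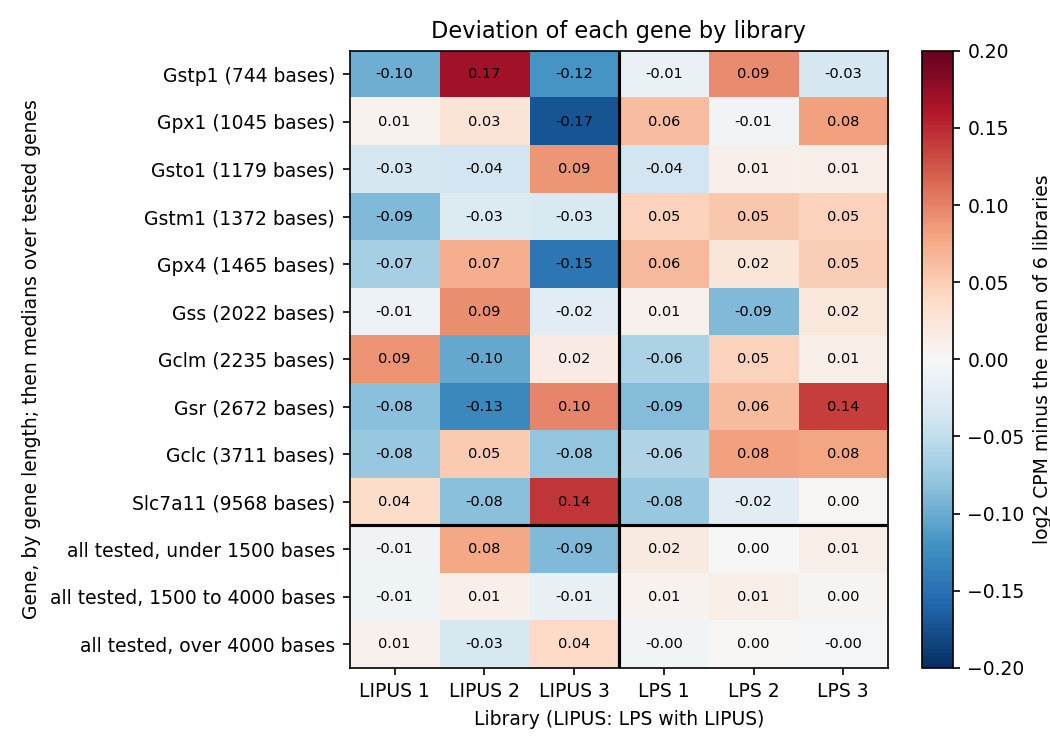
Log2 of CPM + 0.5 minus the mean of all 6 libraries for each gene, from the shortest to the longest by gene length, with the medians over all tested genes in 3 length bands at the foot (LIPUS libraries left of the line, LPS libraries right). LIPUS library 2 is high and LIPUS library 3 low for Gstp1, Gpx1 and Gpx4, and the reverse holds for Slc7a11, as in the shortest and longest bands of all genes. Gsr, Gclm and Gsto1 have signs opposite to those of their own bands.

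The shape of the 10 genes' mean deviation over the 6 libraries was slight, from -0.03 in LIPUS library 1 to 0.04 in LPS library 3. The tested genes most like it, out of 8595 with at least 10 CPM, were S100a13, Smim20, Gfus, Dad1 and Map4k1, picked as the highest Pearson correlations over 6 libraries (0.97 to 0.98). They are a description of these libraries, with no test.

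The transcript table lists 23 RefSeq transcripts of the 10 genes, and all 23 were tested. Reads that fit several transcripts count for each, so their counts cannot be added. Gpx4, whose alternative starts are known to give mitochondrial, cytosolic and nuclear forms of the enzyme, had 3. Of its reads, those compatible with the 1021-base transcript made 73.4% with LIPUS and 72.9% with LPS, and those compatible with the 882-base transcript made 98.99% with LIPUS and 98.8% with LPS. The log2 fold changes of the 3 were -0.09 to -0.08. The shorter Gclm transcript (869 bases) held 38.9% of the gene's reads with LIPUS and 38.1% with LPS. For the 5 Slc7a11 transcripts log2 fold changes were 0.07 to 0.08, and for the 3 Gpx1 transcripts -0.09 to -0.06. The 1207-base Gstm1 transcript had 411, 412 and 409 counts in the LIPUS libraries, against 481, 501 and 457 counts in the LPS libraries. It was the farthest from 0 of the 23, at -0.13 ± 0.08 (SE, edgeR adjusted p = 0.954), and like the other Gstm1 transcript its groups did not overlap. That makes 2 of 23, against 10.4% of all 52257 tested transcripts in either direction and 4.67% with LIPUS lower, and both are transcripts of 1 gene that share reads. With edgeR's quasi-likelihood test 0 of the 23 passed (0% of all tested transcripts), and 0 of them had an unadjusted p below 0.05, against 5.38% of all.

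Relatives of the peroxidases and transferases were described from lists of both families. The 6 other glutathione peroxidase genes were barely detected. Gpx3, the secreted enzyme, had 4 counts over the LIPUS libraries and 9 over the LPS libraries. Gpx2, Gpx7 and Gpx8 each had 1 count over the 6 libraries together, and Gpx5 and Gpx6 had 0. A count of 0 over all 6 libraries allows up to 3 expected counts over the 6 together. Of 25 other transferase genes listed, 12 could be tested, with 7 positive and 5 negative log2 fold changes, a median of 0.07 and 0 passed. The highest by level were the microsomal transferases Mgst2 (36.8 TPM) and Mgst3 (30.7 TPM), at -0.01 ± 0.08 and -0.0002 ± 0.12 on the log2 scale (SE). Gsto2, the sister gene of Gsto1, had the smallest p of that list but was low at 1.11 ± 0.36 CPM with LIPUS and 0.67 ± 0.23 CPM with LPS (SD, n = 3 each). The groups overlapped, at 0.71 ± 0.40 on the log2 scale (SE, edgeR adjusted p = 0.999).

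Wider steps of the pathway were described from 6 further lists. Over these and the 2 family lists together 86 of 112 genes were tested, with 38 positive and 48 negative log2 fold changes and a median of -0.01, and 0 passed. In cystine and cysteine supply 9 of 13 were positive (median 0.05), with the amino acid transporter genes Slc38a2 (150.0 TPM, 0.03 ± 0.05) and Slc1a5 (118.7 TPM, -0.04 ± 0.05) at the highest levels. Mat2b, the regulatory subunit of the enzyme that makes S-adenosylmethionine, had 37.2, 34.1 and 37.0 CPM in the LIPUS libraries, against 41.3, 43.0 and 38.6 CPM in the LPS libraries. All 3 of its LIPUS values were below all LPS values, at -0.18 ± 0.07 (SE, unadjusted p = 0.0233, edgeR adjusted p = 0.999).

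NADPH, which Gsr needs, comes largely from the pentose phosphate pathway. The NADPH list had a median of -0.03 over 14 genes, with 5 positive and 9 negative. Highest in level were Taldo1 (398.9 TPM) and Tkt (296.0 TPM), at 0.02 ± 0.05 and -0.01 ± 0.05 on the log2 scale (SE). G6pdx (134.2 TPM) and Pgd (202.5 TPM), named here after their values were seen, were at -0.08 ± 0.05 and -0.03 ± 0.06. Nadk2, the mitochondrial NAD kinase that makes NADP there, had 59.9, 56.8 and 57.2 CPM in the LIPUS libraries, against 62.4, 64.1 and 64.1 CPM in the LPS libraries. The groups did not overlap, at -0.13 ± 0.06 (SE, unadjusted p = 0.0392, edgeR adjusted p = 0.999). Mat2b and Nadk2 were the 2 of 86 genes with an unadjusted p below 0.05 and LIPUS lower, against 1.61% of all tested genes, and 0 of 86 were higher at that level, against 2.99%. Groups did not overlap in 5 of the 86 with LIPUS lower and in 1 with LIPUS higher. Over all tested genes these shares were 4.63% and 5.09%.

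The remaining lists had medians of -0.05 to 0.02. Glutathione export and breakdown had a median of 0.02 over 16 tested genes, led in level by Slc25a39, which carries glutathione into mitochondria (204.0 TPM, 0.04 ± 0.05), and the dipeptidase gene Cndp2 (192.5 TPM, -0.03 ± 0.05). The smallest p there was that of Slc25a11, a mitochondrial carrier gene, at -0.10 ± 0.06. Glutaredoxins and glyoxalases had a median of -0.02 over 10 genes, with Esd, which frees glutathione from formylglutathione (533.3 TPM, -0.02 ± 0.05), and Clic1, whose protein has a transferase fold (359.1 TPM, 0.01 ± 0.05), the highest and Glrx5, a glutaredoxin of mitochondrial iron-sulfur assembly, with the smallest p (0.08 ± 0.06). Selenoprotein synthesis, on which Gpx1 and Gpx4 depend, had a median of -0.02 over 10 genes. There Sars, a seryl-tRNA synthetase gene, was at -0.02 ± 0.06, the selenophosphate synthetase gene Sephs2 at 0.03 ± 0.07, and Scly, which frees selenium from selenocysteine, at -0.12 ± 0.07. The NRF2 control list had a median of -0.05 over 11 genes. Its most abundant members were Sqstm1, the p62 adaptor that competes for the NRF2 inhibitor (2709 TPM, -0.04 ± 0.06), and Atf4 (630.5 TPM, 0.08 ± 0.08), and Keap1, that inhibitor, was at -0.09 ± 0.07 (all log2 fold changes ± SE, edgeR adjusted p = 0.999). In each of these lists 0 genes passed.

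**Figure D4:**
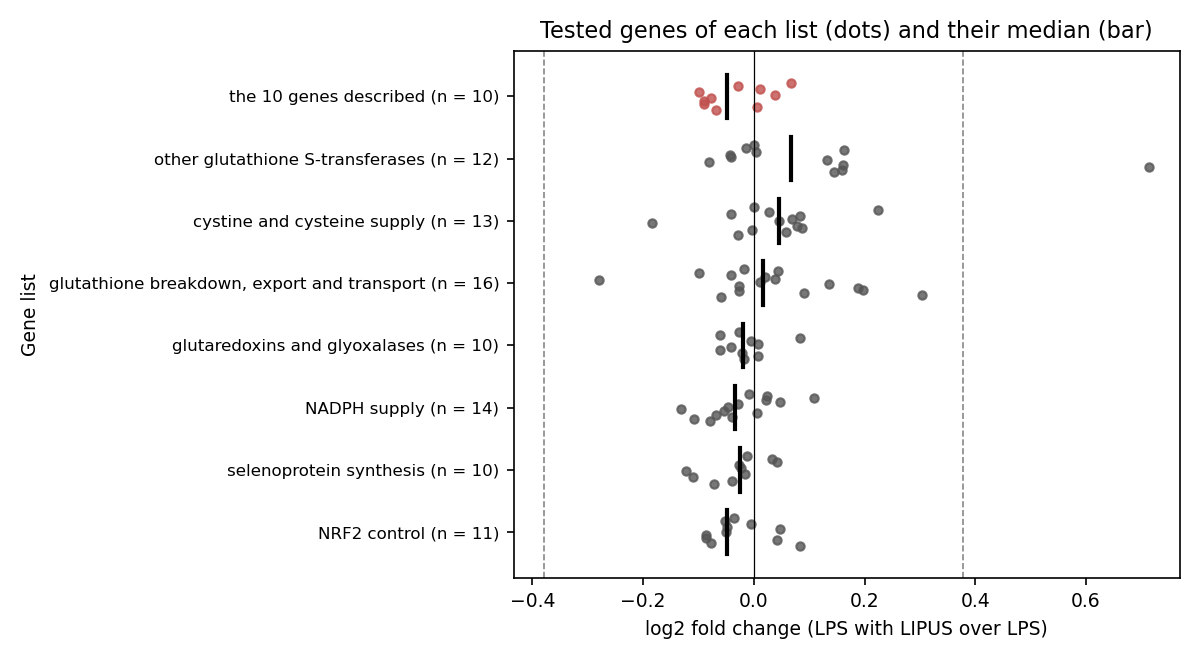
Log2 fold change, LIPUS over LPS alone, for each tested gene of the 10 genes described and of 7 wider lists, with the median of each list as a bar and dashed lines at 1.3-fold. Medians run from -0.05 for the 10 genes and the NRF2 control list to 0.07 for the other transferases, and Gsto2 at 0.71 is the one dot beyond the right line.

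Some of these counts could be shared with near-identical genes. Of the 100-base words in the GENCODE M21 transcripts of Gstp1, 25.1% also occur in its neighbour copy Gstp2, which had 9 counts over the LIPUS libraries and 19 over the LPS libraries while Gstp1 had at least 490 in each library. For Gpx4 25.2% of words occur in the pseudogene Gpx4-ps2, which was not analysed here. Gss is overlapped on the opposite strand by the long non-coding gene Gssos2, which had 697 counts over the LIPUS libraries and 661 over the LPS libraries. Whether reads were counted by strand was not given in the sources used here, so reads of Gss and Gssos2 may be mixed. Shared words were 5.86% for Gstm1, 5.53% for Gss, 3.09% for Gclm, 0.251% for Slc7a11 and 0% for Gclc, Gsr, Gpx1 and Gsto1.

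Total counts were 14171061 to 14632288 in the LIPUS libraries and 14984236 to 15956693 in the LPS libraries. Of the 10 macrophage markers examined 9 could be tested, and Mertk was barely detected, with 13 counts over all 6 libraries. Together the 10 summed to 18122 to 19356 TPM with LIPUS and 18827 to 19292 TPM with LPS. Most of that sum was Lyz2, at a mean of 15766 TPM over the 6 libraries. Of the 9 tested, 4 had positive and 5 negative log2 fold changes, and 0 passed. Ptprc was higher in every LIPUS library than in every LPS library, at 0.15 on the log2 scale (edgeR unadjusted p = 0.00774, adjusted p = 0.842). Fibroblast markers summed to 1.24 to 2.69 TPM with LIPUS and 1.41 to 1.85 TPM with LPS, with Col3a1 at 0. Of these, 2 could be tested, both at low counts. Col1a1 was at -1.34 on the log2 scale (edgeR unadjusted p = 0.00926, adjusted p = 0.890) and Dcn at 0.60 (adjusted p = 0.999). Epithelial and lymphocyte markers summed to at most 0.758 TPM with LIPUS and 0.775 TPM with LPS, each with 4 markers at 0 (Epcam, Krt8, Krt18 and Cdh1, and Cd3g, Cd8a, Ms4a1 and Nkg7). Neutrophil markers summed to 5.10 to 7.36 TPM with LIPUS and 3.94 to 5.46 TPM with LPS, with S100a9 and Retnlg at 0. Most of that sum was S100a8, at a mean of 5.19 TPM and 88 counts over all 6 libraries, and its groups overlapped. Ly6g, Elane and Mpo had 1, 2 and 4 counts over all 6 libraries. The part of all these markers in the values above was not tested. Over all genes edgeR's quasi-likelihood test called 0, with 579 at an unadjusted p below 0.05, and DESeq2 and limma-voom called 0. The count was 2 without LPS library 1, 3 without LIPUS library 2 and 6 without LIPUS library 3, and 0 of the 10 genes were among them in each case. Of the 10 genes 0 are among the 351 that the authors' deposited table marks as changed, and its p-values for the 10 are 0.193 (Gstm1) to 0.939 (Gclm).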

How the data were processed

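Poly(A)-selected RNA was made into NEBNext Ultra libraries and sequenced as paired-end Illumina reads, per the labels' protocols. The submitters' processing notes name bcl2fastq and mm10. No aligner, counter or annotation release was given in the sources used here. The authors deposited raw counts per gene and per transcript, TPM (scaled by length and depth, per the file headers) and comparison tables with a log2 fold change and an unadjusted p-value. Per-sample columns of those comparison tables (24) were not used.

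Counts were tested in R 4.3.3 with edgeR 4.0.16's quasi-likelihood test, two-sided, after filterByExpr (minimum count 10) and TMM scaling, with Benjamini-Hochberg adjustment over all genes or transcripts tested and a threshold of 0.05. Intervals of 95% come from that fit. Its calls were tested on simulated data, the coverage of its intervals was not. Alternatives were DESeq2 1.42.0, limma 3.58.1 (voom, and trend on TPM), other scalings and filters, a replicate block and leaving out each library. The removal of the length trend and the 1.3-fold limit set beside intervals were chosen after seeing the data. The 10 genes and the wider lists were chosen with earlier results of these data known. Genes named from a list are its 2 highest by TPM and the 1 with the smallest p; others are said to be so. Total counts were 14171061 to 15956693 per library. Precision follows from counts, and counting errors cover counting only.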

Additional observations from a re-analysis of the deposited data

How the results depend on the processing

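The side of the threshold was the same for all 10 genes under every alternative run: 0 of 10 passed with DESeq2, limma-voom, limma-trend on log2(TPM + 1) or log2(TPM + 0.1), RLE or upper-quartile scaling, filtering at 1 CPM in 3 libraries or not at all, the replicate block, removal of the length trend and each left-out library. Of 160 refitted log2 fold changes 153 kept their direction, and the 7 that turned came from leaving out 1 library: Gclm ran from -0.037 to 0.055, Gsto1 from -0.029 to 0.035 and Gstp1 from -0.13 to 0.027. In the same fits Slc7a11 ran from 0.014 to 0.12, Gclc from -0.11 to -0.041, Gss from 0.0008 to 0.063, Gsr from -0.15 to -0.023, Gpx1 from -0.13 to -0.025, Gpx4 from -0.15 to -0.038 and Gstm1 from -0.11 to -0.074. The count over all genes was 0, and it was 25 with no filter, 5 with the replicate block and 0 to 6 on leaving out 1 library. For transcripts it was 0, and 187 with no filter, 11 with the replicate block and 0 to 10 on leaving out 1 library. The log2 difference of the Gclm to Gclc ratio was 0.005 to 0.17 on leaving out 1 library and 0.07 with the pairing of replicate numbers. Deviations of same-numbered libraries correlated at -0.001, -0.10 and 0.004 across genes. With 3 libraries per group these values cannot show whether same-numbered samples shared a culture or batch.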
